A study of Mus musculus with 4 samples.

Results

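A set of 8 genes of glucose production and glucose use were followed in mouse liver after an acetaminophen dose given in the fasted state. Of the 54149 genes in the deposited table these were taken by symbol: Pck1, G6pc, Fbp1, Pcx, Got1, Tat, Ppargc1a and Pklr. The livers came from adult female mice, either wild type or with a liver-specific Utx knockout, and both genotypes were C57BL/6 x 129S4/SvJae. All mice of both groups had been fasted for 16 h and then injected intraperitoneally with acetaminophen (APAP) at 300 mg/kg, so neither a fed nor an undosed liver serves as a baseline. Each genotype had 2 libraries, and each library was a pool of liver RNA from 2 mice. The livers are described with the Cre driver and the time from dose to collection not given in the sources used here. Both pools of a genotype are described as biological replicates, and every p-value rests on the spread between so few of them. An exact permutation test of 2 pools against 2 cannot go below p = 0.333, so the tests below come from a model fitted across 11900 genes.

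In fasting, the liver makes glucose from lactate, glycerol and amino acids. Pyruvate carboxylase (Pcx) turns pyruvate into oxaloacetate in mitochondria, phosphoenolpyruvate carboxykinase (Pck1) draws on it in the cytosol, fructose-1,6-bisphosphatase (Fbp1) reverses a committed step of glycolysis, and glucose-6-phosphatase (G6pc) releases free glucose. Got1 and Tat move amino groups and feed carbon into the pathway, and Ppargc1a encodes PGC-1alpha, a coactivator that fasting hormones induce. Pklr encodes the liver pyruvate kinase, which runs the last step of glycolysis in the opposite direction and is usually favoured by feeding. Glucagon, through cyclic AMP and CREB, and glucocorticoids raise the gluconeogenic genes, and insulin lowers them through FOXO1.

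The promoters of Got1, the member that passed the test, and of the 2 members with a match to part of the cyclic AMP response element are shown, since that element links glucagon to these genes. The stretches are the 120 bases from 145 to 26 bases before the RefSeq transcription start on GRCm38.p6, printed 5′ to 3′ on the gene's strand. Capitals mark TGACG or its reverse complement. The Pck1 stretch is chr2:173152928-173153047 (plus strand), that of Ppargc1a is chr5:51567751-51567870 (minus strand) and that of Got1 is chr19:43524631-43524750 (minus strand), and none of them covers an exon annotated in GENCODE M21.
Pck1: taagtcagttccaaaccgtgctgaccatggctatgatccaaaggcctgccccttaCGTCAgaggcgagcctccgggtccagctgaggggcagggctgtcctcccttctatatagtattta
Ppargc1a: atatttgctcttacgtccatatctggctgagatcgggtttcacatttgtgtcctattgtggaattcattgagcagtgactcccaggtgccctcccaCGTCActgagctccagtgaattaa
Got1: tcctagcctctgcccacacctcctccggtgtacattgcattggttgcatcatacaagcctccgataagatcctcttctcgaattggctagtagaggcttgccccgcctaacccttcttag

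All 8 members had a RefSeq start, in 10 windows of the 250 bases before a start. On both strands, TGACG was found in 2 of the 10 windows, 90 to 86 bases before the start in Pck1 and 49 to 45 bases before it in Ppargc1a, and in 17.8% of 32851 such windows of all genes. The full element TGACGTCA, which contains TGACG, was in 0 of the 10 windows and in 1.55% of all windows. The forkhead letters TGTTTAC, the glucocorticoid receptor part TGTTCT and the C/EBP letters TTGCNNAA were in 0 of the 10 windows and in 3.17%, 16.1% and 9.56% of all windows. The E-box CACGTG was in 1 member window, upstream of Pcx (6.02% of all windows), and TATAAA was in 2, at G6pc and at the downstream start of Pklr (12.4% of all windows). These matches describe letters in short windows only.

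The 4 libraries held between 16330451 and 17804730 reads. Levels are in FPKM, fragments per kilobase of gene length scaled to sequencing depth. Kdm6a, the symbol of Utx, had 3.401 and 3.85 FPKM in wild-type against 2.20 and 2.12 FPKM in knockout pools (log2 fold change -0.63, limma adjusted p = 0.0715). Over all 11900 genes tested, 190 were higher and 374 lower in the knockout at an adjusted p under 0.05, which is 4.74%; with FPKM rescaled to each library's listed reads the counts were 211 and 255. Leaving out wild-type replicate 1, wild-type replicate 2, knockout replicate 1 or knockout replicate 2 left 26, 0, 5 and 253 genes, so every count of passing genes below rests on having all 4 pools. Hepatocyte markers were abundant in every pool: 9 of the 10 listed were found, none of them at 0, and they summed to 39570 and 48910 FPKM in wild-type and 45860 and 34850 FPKM in knockout pools. Of the other cell types, the summed markers of neutrophils, cholangiocytes, sinusoidal endothelial cells and erythroid cells were lower in both knockout pools, and those of Kupffer cells and macrophages, stellate cells and lymphocytes overlapped. The 15 neutrophil markers, none at 0 in all pools, summed to 122 and 186 FPKM in wild-type and 41.3 and 37.9 FPKM in knockout pools, with 4 of 9 tested passing as lower. The 7 cholangiocyte markers, also none at 0 in all pools, summed to 266 and 104 FPKM against 42.9 and 20.9 FPKM, with 1 of 4 tested passing as lower. The 10 sinusoidal endothelial markers summed to 97.9 and 93.4 FPKM against 70.6 and 74.5 FPKM and the 6 erythroid markers to 254 and 279 FPKM against 172.5 and 246 FPKM, with 0 passing. The 12 Kupffer cell and macrophage markers summed to 434 and 343 FPKM against 260.1 and 417 FPKM, with 1 passing as lower. The share of reads from mitochondrial ribosomal RNA was 0.244% and 0.251% in wild-type against 0.108% and 0.158% in knockout pools. The part of these differences in the results below was not tested, and in bulk liver fewer cells of a type and less RNA per cell cannot be told apart.

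Of the 8 members, 1 passed the test: Got1 fell to about 0.506 times its wild-type level in the knockout livers. Pklr and Pck1 were higher in both knockout pools than in either wild-type pool, at 1.76 and 1.41 times the wild-type mean, without passing. Pcx was likewise higher and Ppargc1a lower in both knockout pools. G6pc was low in 1 knockout pool only, and Fbp1 and Tat overlapped between genotypes. The members therefore did not move as a block: 5 of the 8 log2 fold changes were above 0 and 3 below, with a median of 0.14 against 0.01 for all genes tested. All 8 passed the filter on low values, and the share called was 12.5%, which is 1 gene, beside 4.74% of all genes. By direction, 0 of 8 members passed as higher, beside 1.60% of all genes, and 1 as lower, beside 3.14%. The pools of the 2 genotypes did not overlap for 5 of 8 members, or 62.5%, close to the 61.5% of all genes tested. Of these, 3 members were higher (31.6% of all genes) and 2 lower (29.9% of all genes).

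**Figure D1:**
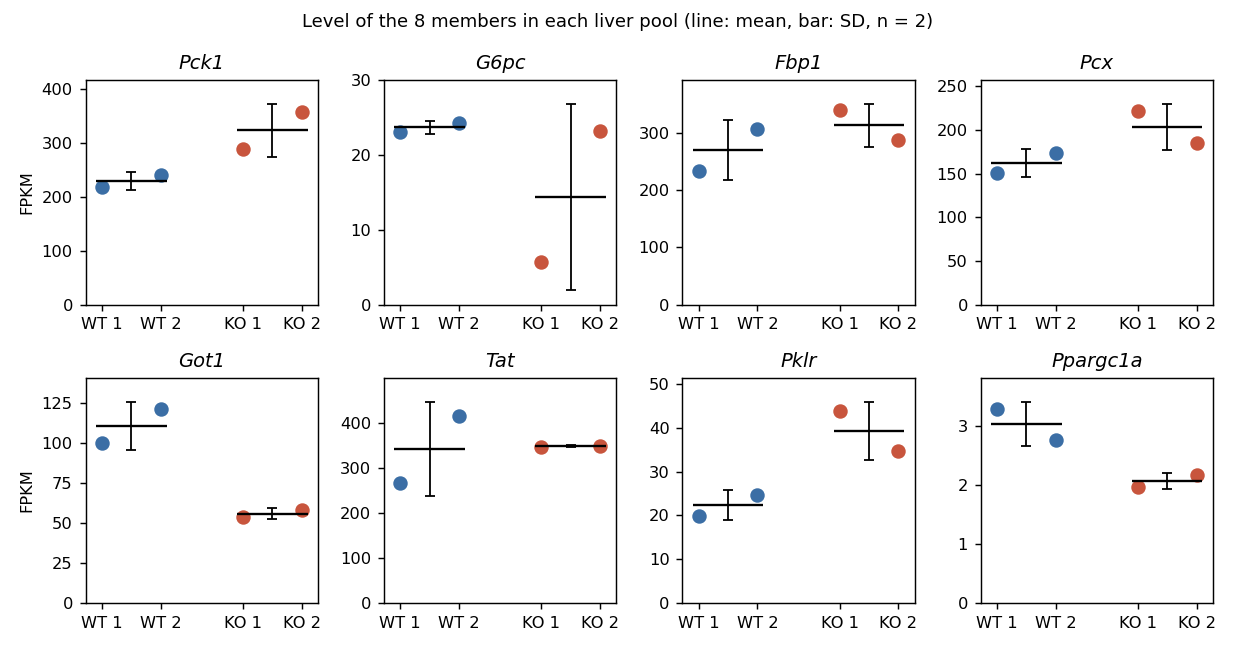
FPKM of each member (vertical axis, from 0, a separate scale for each gene) in the 2 wild-type pools (blue, WT) and the 2 knockout pools (red, KO). Lines are group means and bars are SD over 2 pools; Got1 is at 100 and 121 in wild-type and at 53.6 and 58.5 in knockout pools, and G6pc is low in knockout pool 1 alone.

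Of the enzymes that lead from pyruvate to glucose, Pcx (ENSMUSG00000024892, GRCm38 chromosome 19, 4510472 to 4621752, plus strand) was at 151 and 174 FPKM in wild-type and at 222 and 185 FPKM in knockout pools. Both knockout values lay above both wild-type values, but the gap between the groups was smaller than the distance between the 2 wild-type pools. This gave a log2 fold change of 0.32 with an SE of 0.16 (95% confidence interval from -0.09 to 0.74, limma adjusted p = 0.266). Intervals below are of the same kind.

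Pck1 (ENSMUSG00000027513, chromosome 2, 173153048 to 173159273, plus strand) stood at 217 and 240.4 FPKM in wild-type and at 289 and 358 FPKM in knockout pools. These values rest on 12590 to 21046 reads per library, so counting error is small beside the spread between pools. The knockout pools were both higher and did not overlap the wild-type pools. The log2 fold change was 0.49 (SE 0.17, interval 0.05 to 0.93) and the limma adjusted p was 0.150. It did not pass in any of 17 alternatives, where its log2 fold change ran from 0.34 to 0.65. Pck2, the mitochondrial form of the enzyme, was at 0.591 and 0.652 FPKM in wild-type and 1.27 and 0.971 FPKM in knockout pools, below the filter for testing. The FPKM of Pck1 exceeded that of Pck2 by 227-fold in knockout pool 1 and by 367-fold to 369-fold in the other pools. These ratios also depend on the listed gene lengths.

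Fbp1 (ENSMUSG00000069805, chromosome 13, 62864753 to 62888282, minus strand) was at 233 and 307 FPKM in wild-type and at 340 and 287 FPKM in knockout pools. The genotypes overlapped, since knockout pool 2 lay between the wild-type pools. The log2 fold change of 0.22 had an interval from -0.30 to 0.74 (limma adjusted p = 0.507), a range on both sides of 0.

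G6pc (ENSMUSG00000078650, chromosome 11, 101367561 to 101377903, plus strand) was at 23.0 and 24.3 FPKM in the wild type and at 5.62 and 23.2 FPKM in knockout pools. The low value belongs to knockout pool 1, where 242 reads were listed against 922 to 959 in the other libraries, and knockout pool 2 lay between the wild-type pools. The mean log2 fold change of -1.004 (SE 0.65, interval -2.72 to 0.72, limma adjusted p = 0.377) is an average of these unlike pools. Without knockout replicate 1 it was -0.03 (adjusted p = 0.951), and without knockout replicate 2 it was -1.98 (adjusted p = 0.0291); each of those fits takes the remaining knockout pool to vary like the wild-type pools.

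The partners of G6pc were measured beside it. Slc37a4, which carries glucose-6-phosphate to the phosphatase inside the endoplasmic reticulum, was at 31.8 and 33.95 FPKM in wild-type and at 82.5 and 59.0 FPKM in knockout pools. It was higher in both knockout pools and fell just short of the threshold (log2 fold change 1.08, SE 0.19, limma adjusted p = 0.0540), passing in 6 of 17 alternatives. Within a library, G6pc was 0.725 and 0.716 times Slc37a4 per length in wild-type pools and 0.0682 and 0.393 times in knockout pools. This ratio was lower in both knockout pools, also in the pool whose own G6pc level lay between the wild-type pools. G6pc3, the broadly expressed phosphatase, was at 5.82 and 5.37 FPKM in wild-type and at 5.42 and 6.79 FPKM in knockout pools (adjusted p = 0.666).

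Among the genes that supply carbon from amino acids, Got1 (ENSMUSG00000025190, chromosome 19, 43499752 to 43524605, minus strand) encodes the cytosolic aspartate aminotransferase. It was at 100 and 121 FPKM in wild-type and at 53.6 and 58.5 FPKM in knockout pools, from 4293, 4845, 2425 and 2544 reads. The highest knockout pool was well under the lowest wild-type pool. Its log2 fold change was -0.97 (SE 0.14, interval -1.35 to -0.59, limma adjusted p = 0.0433). The call was kept in 9 of 17 alternatives and lost on leaving out any 1 of the 4 pools, where the adjusted p ran from 0.0801 to 0.159 and the log2 fold change from -1.11 to -0.83. It was also lost without a mean-variance trend (adjusted p = 0.0608).

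Got2, the mitochondrial aspartate aminotransferase, did not share that fall. It was at 73.3 and 84.2 FPKM in wild-type and at 103 and 93.7 FPKM in knockout pools (log2 fold change 0.32, limma adjusted p = 0.207). The ratio of Got1 to Got2 per length was 1.36 and 1.44 in wild-type pools and 0.518 and 0.624 in knockout pools, so the cytosolic transcript was the more abundant of the pair in wild-type livers and the less abundant in knockout livers. That ratio was not tested beyond the non-overlap of the pools. Slc25a13, which exchanges aspartate and glutamate across the inner mitochondrial membrane, was at 26.0 and 28.4 FPKM in wild-type and at 50.15 and 42.4 FPKM in knockout pools (adjusted p = 0.0540), also without passing.

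Tat (ENSMUSG00000001670, chromosome 8, 109990437 to 109999803, plus strand) encodes tyrosine aminotransferase, a classic glucocorticoid-induced liver enzyme. It was at 267 and 414 FPKM in wild-type and at 346 and 349 FPKM in knockout pools. The knockout pools were nearly equal and lay between the wild-type pools, so the spread sits within the wild type. The log2 fold change was 0.06 (SE 0.24, interval -0.58 to 0.71, limma adjusted p = 0.894) and changed sign without wild-type replicate 1, to -0.26. Tdo2, a tryptophan-degrading enzyme that glucocorticoids also induce, had a log2 fold change of 0.13 (adjusted p = 0.744), which was -0.13 without wild-type replicate 1.

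Ppargc1a (ENSMUSG00000029167, chromosome 5, 51454250 to 51567726, minus strand) was the least abundant member. It was at 3.29 and 2.77 FPKM in wild-type and at 1.97 and 2.16 FPKM in knockout pools, from 367, 287, 231 and 244 reads. Both knockout pools were lower, and the pools did not overlap. The log2 fold change of -0.46 (SE 0.15, interval -0.86 to -0.06) did not pass (limma adjusted p = 0.144). Its adjusted p ran from 0.0936 to 0.420 in 16 alternatives. Ppargc1b, its paralog, was at 0.478 to 0.675 FPKM in the 4 pools, under the filter for testing.

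Pklr (ENSMUSG00000041237, chromosome 3, 89136142 to 89146784, plus strand) was at 19.9 and 24.7 FPKM in wild-type and at 43.9 and 34.6 FPKM in knockout pools, from 1090, 1256, 2533 and 1921 reads. Both knockout pools were clearly above the wild-type pools. The log2 fold change was 0.80 (SE 0.18, interval 0.33 to 1.27), and the threshold was missed at a limma adjusted p of 0.0782. It passed with limma voom on recovered reads (adjusted p = 0.0478) and, chosen after seeing the data, with the replicate numbers crossed as a block. Pklr exons share 711 bases with Hcn3 on the opposite strand, and the strand of reads is not stated. Hcn3 was listed at 29, 41, 106 and 66 reads, few beside those of Pklr and also higher in both knockout pools. These counts do not show how reads in the shared bases were assigned, and the part of such reads in the Pklr values was not tested. None of the other 7 members shares exon bases with another gene in GENCODE M21. One value per gene cannot tell the 2 RefSeq starts of Pklr apart.

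Pkm, the pyruvate kinase of most other cell types, was at 24.9 and 17.4 FPKM in wild-type and at 13.4 and 20.2 FPKM in knockout pools (limma adjusted p = 0.475). The ratio of Pklr to Pkm per length was 0.799 and 1.42 in wild-type and 3.28 and 1.72 in knockout pools, higher in both knockout pools. Kupffer cell and macrophage marker sums had the same order over the 4 pools as Pkm, and their part in this ratio was not tested.

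**Figure D2:**
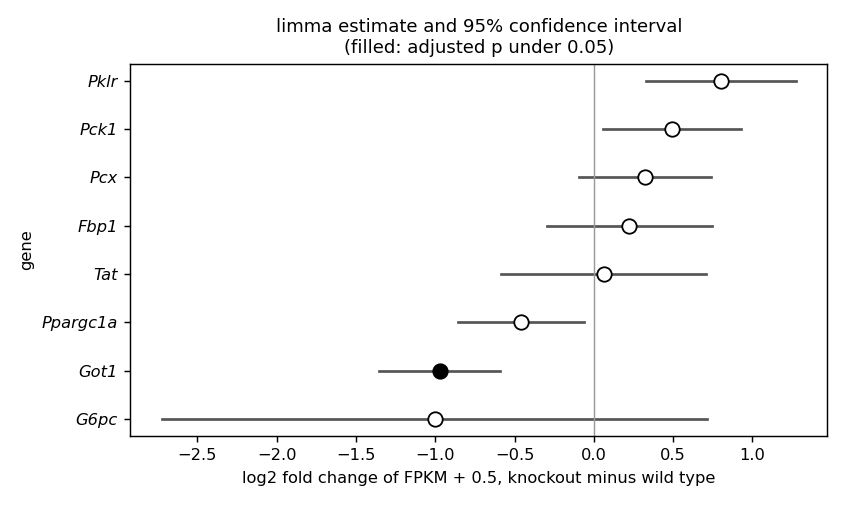
Log2 fold change of FPKM + 0.5, knockout minus wild type (horizontal axis), for each member, with the limma 95% confidence interval as a bar. Got1 at -0.97 is the filled point that passed an adjusted p of 0.05, and the interval of G6pc, from -2.72 to 0.72, is the widest of the 8.

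The order of the members by level was much the same in both genotypes. In wild-type pools, mean FPKM ran from Tat at 341 and Fbp1 at 269.9 through Pck1 at 229, Pcx at 163 and Got1 at 111 to G6pc at 23.7, Pklr at 22.3 and Ppargc1a at 3.03. The ranges of Tat and Fbp1, of Fbp1 and Pck1, and of G6pc and Pklr overlapped, so the order within those neighbours is not resolved. In knockout pools Tat, Pck1 and Fbp1 again led, at 347, 323 and 313, with overlapping neighbours, and Pcx at 204 and Got1 at 56.0 followed. Pklr at 39.3 stood above G6pc at 14.4 there, with ranges that did not overlap. The most abundant member, Tat, ranked 138th by mean FPKM among the genes tested and the least, Ppargc1a, 8905th.

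The genes closest in pattern to each member were found by the Euclidean distance between centred log2 profiles over the 4 libraries. Only protein-coding genes whose symbol is not a placeholder were ranked. A close profile brings a similar fold change, so the likeness of these genes to their member follows from how they were picked. For Got1 they were Slc17a3, an anion transporter (distance 0.0382), and Ptbp1, a splicing regulator (0.0490), both of which passed as lower with log2 fold changes of -0.97 and -0.99 (limma adjusted p = 0.0466 and 0.0477). For Tat they were Ass1, a urea cycle enzyme (0.0153), and Tmem81 (0.0690). For Pklr the transcription factor Prox1 was among them (0.0773). For G6pc they were the transporters Slc3a1 (0.293) and Slc22a7 (0.365), which were also low in knockout pool 1 alone, at 0.754 and 0.335 FPKM against 3.13 to 4.03 and 1.90 to 2.18 FPKM in the other pools. For Pck1 they were Gpr19 (0.0516) and Slc22a23 (0.0609), for Fbp1 Cops6 (0.0245) and Acad12 (0.0324), for Pcx Zfp229 (0.0196) and Ube2e2 (0.0336), and for Ppargc1a Ppp1r21 (0.0165) and Ralb (0.0170).

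Of 27 other genes of gluconeogenesis and its carbon supply, 24 were tested: 1 rose, 0 fell and 23 did not pass. Their median log2 fold change was 0.20, with 16 above 0 and 8 below. For all 11900 genes tested the median was 0.01, with 6111 above 0 and 5789 below. Tpi1, triose phosphate isomerase, was the gene of the list that rose, from 114 and 127 FPKM to 236 and 211 FPKM (log2 fold change 0.89, SE 0.14, limma adjusted p = 0.0451). Pgam1, phosphoglycerate mutase, was at 55.2 and 52.4 FPKM in wild-type and at 80.2 and 85.5 FPKM in knockout pools (adjusted p = 0.0545), and Gpt, alanine aminotransferase, at 55.0 and 64.0 against 119 and 87.6 FPKM (adjusted p = 0.0935). The list median thus stood slightly above 0, while the call rate of the list, 4.17%, was near the 4.74% of all genes. The pools did not overlap for 62.5% of its tested genes, near the 61.5% of all genes. A shift of the list was not tested. Gapdh, a glycolytic enzyme that every cell uses, was listed at only 5.87 to 7.12 FPKM. Gapdh, Tpi1 and Pgam1 have processed copies in the genome, and the treatment of reads matching several places, not given in the sources used here, bears on their values.

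Of 39 genes of amino acid breakdown, 38 were tested: 2 rose, 0 fell and 36 did not pass (median 0.27). The share called was 5.26%, near the 4.74% of all genes. Bcat2, a branched-chain aminotransferase, rose from 3.52 and 4.01 FPKM to 10.7 and 7.64 FPKM (limma adjusted p = 0.0494). Hibch, an enzyme of valine breakdown, rose from 6.36 and 5.51 FPKM to 11.02 and 10.6 FPKM (adjusted p = 0.0426). Their calls were kept in 9 and 8 of 17 alternatives. Both belong to the breakdown of branched-chain amino acids, as does Ivd, of leucine breakdown. Ivd was at 13.3 and 13.6 FPKM in wild-type and at 26.2 and 20.5 FPKM in knockout pools without passing (adjusted p = 0.0650). Other genes of branched-chain breakdown in the list, named after their values were seen, also did not pass. Bckdha, Bckdhb, Bckdk and Aldh6a1 had log2 fold changes of 0.14, 0.31, 0.12 and 0.48 (limma adjusted p = 0.742, 0.310, 0.650 and 0.229). Sdsl, a serine dehydratase homolog, was at 18.8 and 29.9 FPKM against 12.4 and 10.7 FPKM (adjusted p = 0.0887), on the side of Got1. Prodh was listed at 0 in all 4 pools, which can be a failed estimate.

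Of 37 genes of glucose uptake, glycolysis and pyruvate oxidation, 31 were tested: 1 rose, 1 fell and 29 did not pass (median 0.32). The share called was 6.45%, beside 4.74% of all genes. The pair that passed were glucose transporters on opposite sides. Slc2a2, the GLUT2 carrier of hepatocytes, rose from 12.9 and 13.2 FPKM to 39.3 and 30.3 FPKM (log2 fold change 1.37, SE 0.16, limma adjusted p = 0.0315). Slc2a1, the GLUT1 carrier that most other cell types use, fell from 23.7 and 26.6 FPKM to 7.09 and 7.503 FPKM (log2 fold change -1.72, SE 0.11, adjusted p = 0.0258). Each kept its call in 13 of 17 alternatives. The ratio of Slc2a2 to Slc2a1 per length was 0.543 and 0.496 in wild-type and 5.55 and 4.04 in knockout pools.

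Further genes of this list did not pass, some of them near the threshold. Pdk4, a fasting-induced kinase that blocks pyruvate dehydrogenase, was at 93.3 and 87.8 FPKM in wild-type and at 16.0 and 35.6 FPKM in knockout pools (log2 fold change -1.90, SE 0.39, limma adjusted p = 0.0674). Pdk2, another kinase of the same enzyme, was at 4.30 and 4.22 FPKM in wild-type and at 14.9 and 8.35 FPKM in knockout pools (log2 fold change 1.29, limma adjusted p = 0.0748). The ratio of Pdk4 to Pdk2 per length was 21.7 and 20.8 in wild-type and 1.08 and 4.26 in knockout pools. Both genes of the pair, moving in opposite directions, enter this ratio. Pfkfb1 and Pfkfb3, isoenzymes that set fructose-2,6-bisphosphate, had log2 fold changes of 0.84 (adjusted p = 0.0518) and -1.06 (adjusted p = 0.0596). Pfkfb1 is the liver form. Txnip, which glucose induces, was at 47.3 and 36.3 FPKM against 58.0 and 60.7 FPKM (adjusted p = 0.137).

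**Figure D3:**
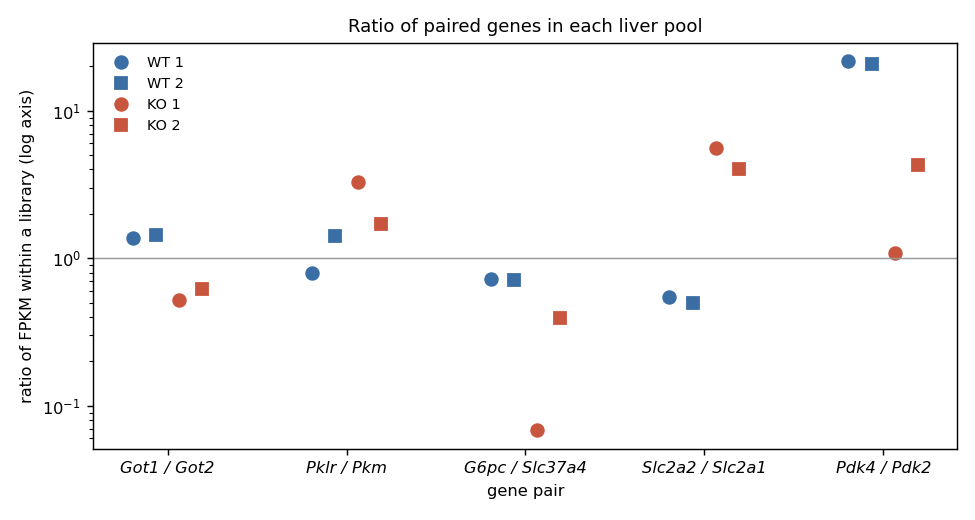
Ratio of FPKM of a gene pair within each library (vertical axis, log scale) for wild-type pools (blue) and knockout pools (red), with circles for replicate 1 and squares for replicate 2. The Got1 to Got2 ratio lies above 1 in the wild-type pools and below 1 in the knockout pools, and the Slc2a2 to Slc2a1 ratio the other way round. Positions above or below 1 depend on the listed gene lengths.

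Of 57 regulators of these genes, 51 were tested: 3 rose, 6 fell and 42 did not pass (median -0.10). The share called was 17.6%, beside 4.74% of all genes, and the pools did not overlap for 78.4% of them, beside 61.5%. The list was drawn up with earlier results for some of its genes known, Igfbp1 among them, so this share is a description. Klf15, a fasting-induced factor that drives amino acid breakdown and gluconeogenesis, rose from 8.10 and 6.36 FPKM to 18.6 and 17.4 FPKM (limma adjusted p = 0.0331). Nr0b2, a corepressor (SHP) induced by bile acid signalling, rose from 3.50 and 4.05 FPKM to 7.73 and 9.64 FPKM (adjusted p = 0.0419). Igfbp1, a secreted protein that fasting induces and insulin represses through FOXO1, fell from 143.5 and 345 FPKM to 20.6 and 33.4 FPKM (adjusted p = 0.0477). Irs2, an insulin receptor substrate that is also raised in fasting, fell from 11.9 and 15.1 FPKM to 5.94 and 5.66 FPKM (adjusted p = 0.0375).

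Other regulators fell as well. Pde4b, a cyclic AMP phosphodiesterase, fell from 5.13 and 4.35 FPKM to 1.32 and 1.41 FPKM (limma adjusted p = 0.0288). Trib3, a stress-induced pseudokinase that binds AKT, fell from 34.2 and 25.8 FPKM to 13.1 and 11.9 FPKM (adjusted p = 0.0412). The other 3 regulators that passed are named after their values were seen. Crem, a cyclic AMP-responsive modulator, and Dusp1, a phosphatase of MAP kinases, had log2 fold changes of -0.90 (adjusted p = 0.0429) and -2.27 (adjusted p = 0.0498). Onecut1, a hepatocyte transcription factor, had a log2 fold change of 1.47 (adjusted p = 0.0426). Of 17 alternatives, Dusp1 kept its call in 8, Crem and Trib3 in 9, and Onecut1, Irs2, Nr0b2 and Igfbp1 in 10.

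The following receptors and factors of the list did not pass, and except for Hnf4a they are named after their values were seen. Gcgr, the glucagon receptor, was at 57.0 and 66.6 FPKM in wild-type and at 93.1 and 85.8 FPKM in knockout pools (limma adjusted p = 0.0941). Nr3c1, the glucocorticoid receptor, had a log2 fold change of -0.18 (adjusted p = 0.356), and Crtc2, a CREB coactivator, of -0.12 (adjusted p = 0.625), a sign that turned without knockout replicate 2. Foxo1 was at 8.37 and 7.32 FPKM against 4.38 and 6.58 FPKM (adjusted p = 0.216), and Cebpb at 199.6 and 232 against 127 and 174 FPKM (adjusted p = 0.182). Hnf4a, a master regulator of hepatocyte genes, was at 84.2 and 117 FPKM against 125 and 112 FPKM, with overlapping pools (adjusted p = 0.445).

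**Figure D4:**
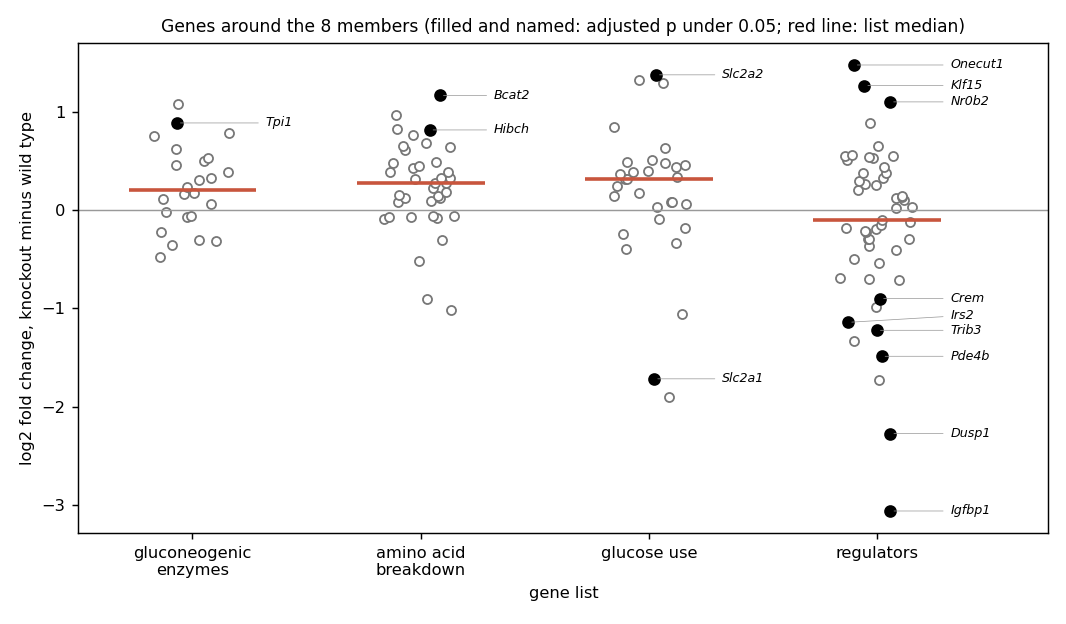
Log2 fold change, knockout minus wild type (vertical axis), of the tested genes of 4 lists around the members (horizontal axis), with a red line at each list's median. Filled points passed an adjusted p of 0.05 and are named; the medians are 0.20, 0.27, 0.32 and -0.10, and most points lie within 1 unit of 0.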

How the data were processed

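Poly(A)-selected liver RNA of 4 pools was sequenced. The authors deposited 1 table of FPKM for 54149 genes with gene lengths and coordinates, per the file headers. The submitters' processing notes name HISAT2 (2.0.5) and the build mm10, GRCm38.p6, with the counting program, annotation release and strand setting not given in the sources used here. Columns were matched to samples by genotype and replicate number. Read numbers were recovered from the steps between low FPKM values, and 100% of values came out whole to within 0.01 read.

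The test was limma (version 3.58.1, R 4.3.3) on log2 of FPKM plus a pseudocount of 0.5, for genes averaging 1 FPKM or more (eBayes with a mean-variance trend, 2 residual and 2.59 prior degrees of freedom). P-values were two-sided and Benjamini-Hochberg adjusted over 11900 genes, threshold 0.05. Fold changes refer to this scale, which shrinks those of weakly expressed genes. On simulated data of this size, with the same relative spread for every gene, the share of false calls exceeded the threshold. Spread differs between genes in these data, so that share does not carry over to them. Calls just under the threshold are weak in any case, since alternatives moved them across it.

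The members and lists were chosen with earlier results of these data known. Named were the members, Kdm6a, the 5 tested genes with the smallest p of each of 4 lists, 13 genes related to a member, the 2 closest profiles per member, and those said to be named later. A few genes that this rule names are not reported here. Of all list symbols, 1 was not found. Motif matches came from RefSeq promoters (GRCm38.p6). Alternatives were pseudocounts, filters, scalings, limma variants, protein-coding genes alone, a replicate block and leaving out each pool. Figures used matplotlib 3.10.9.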

Additional observations from a re-analysis of the deposited data

How the results depend on the processing

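Calls moved more than directions. With no filter on low values, 0 of 26643 genes passed limma, members and lists included, although 4388 had an unadjusted p under 0.05 and limma voom called 1050 genes on the filtered set. The genes called were 280 (80 higher, 200 lower) without the trend, 1050 (405 higher, 645 lower) with limma voom on recovered reads, 1014 (408 higher, 606 lower) for protein-coding genes only and 867 (322 higher) with at least 50 reads on average. Leaving out 1 pool gave 0 to 253 genes (0 to 57 higher, 0 to 196 lower), 0 to 1 members called, 0 to 1 amino acid breakdown genes, 0 to 1 gluconeogenic enzymes, 0 to 4 glucose use genes and 0 to 2 regulators. The 1 member called without knockout replicate 2 was G6pc, not Got1.

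The numbers 1 and 2 are the replicate numbers in the sample titles of both genotypes. Same-numbered deviations from the group means correlated at -0.14 over 11900 genes. With 2 pools per genotype, this value cannot tell whether same-numbered pools were paired. With the replicate block 310 genes passed (74 higher, 236 lower), with 0 members, 0 gluconeogenic enzymes and 0 amino acid breakdown genes. The crossed pairing as a block, added after seeing the data, gave 2 gluconeogenic enzymes and 1 amino acid breakdown gene, and 552 genes in all.

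Members called were 0 without the trend and 2 with limma voom. Gluconeogenic enzymes called were 4 with a mean of at least 5 FPKM, with voom, for protein-coding genes and with at least 50 reads, 3 when rescaled to listed reads and 0 without the trend. Amino acid breakdown genes called were 1 with a pseudocount of 1, when rescaled and with robust limma, 0 without the trend, and 4 with voom and for protein-coding genes. Glucose use genes called were 5 with voom and with at least 50 reads and 6 for protein-coding genes. Regulators called were 2 without the trend. The cause of these shifts was not tested.

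Some directions turned on leaving out 1 pool. Without wild-type replicate 1 the log2 fold changes were -0.26 for Tat, -0.26 for Ass1, -0.21 for Tmem81 and -0.13 for Tdo2, and across single-pool omissions they ran from -0.26 to 0.38, -0.26 to 0.37, -0.21 to 0.33 and -0.13 to 0.38. For Slc3a1 and Slc22a7, whose negative values rest on knockout replicate 1, and for G6pc3 and Crtc2 these ranges were -1.69 to 0.12, -1.54 to 0.14, -0.041 to 0.26 and -0.285 to 0.036. The other 7 members kept their direction in every alternative run.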
